A study of Mus musculus with 6 samples.

Results

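The 41 genes described here encode proteins that copy DNA or that admit cells to S phase, and they were taken from the deposited count table by a fixed list of names. All 41 were among the 18512 entries of that table, and all 41 passed the filter of a mean of at least 20 normalized counts with which 13355 genes were tested. They were sorted by role into origin licensing factors (Orc1, Orc6, Cdc6, Cdt1), MCM helicase subunits (Mcm2 to Mcm7), helicase activators (Mcm10, Cdc45, Gins1, Gins2, Gins3), polymerases and primase (Pola1, Pola2, Prim1, Pold1, Pole), clamp and lagging-strand factors (Pcna, Rfc3, Rfc4, Rfc5, Lig1, Fen1), nucleotide-supply enzymes (Rrm1, Rrm2, Tyms, Tk1), G1/S regulators (Ccne1, Ccne2, Cdc25a, E2f1, E2f2, E2f7, E2f8) and chromatin duplication factors (Uhrf1, Chaf1a, Chaf1b, Slbp).

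The libraries came from NMuMG, a line of mouse mammary epithelial cells in which TGF-β, a growth factor, induces the epithelial to mesenchymal transition. There were 3 groups of 2 libraries each: the vehicle DMSO, TGF-β (5 ng/ml), and the same dose of TGF-β plus 50 uM 2APB. 2APB (2-aminoethoxydiphenyl borate) modulates store-operated calcium entry, the influx that follows emptying of the calcium stores of the endoplasmic reticulum. All groups were the same line, starved of serum for 4 h and then treated for 24 h, although the methods can also be read as 2APB before TGF-β. No library of 2APB without TGF-β was analysed here, so TGF-β+2APB was compared with TGF-β and with DMSO only. The methods call the 2 replicates of each treatment biological, but neither they nor the labels say whether these came from separate cultures or days. The p-values below thus weigh differences against the spread between these samples.

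DNA replication is prepared in G1, when the origin recognition complex, Cdc6 and Cdt1 load the ring of MCM proteins onto DNA. At the G1/S boundary, cyclin E kinase and the phosphatase Cdc25a drive entry into S phase, Cdc45 and the GINS proteins join the MCM ring to form the working helicase, and polymerases, the sliding clamp and its loader then copy both strands. Many of these genes are known targets of E2F transcription factors, of which E2f1 and E2f2 activate and E2f7 and E2f8 repress transcription, and TGF-β is known to arrest many epithelial cells in G1. In RNA from whole cultures, more S-phase cells and more RNA of these genes per cell cannot be told apart.

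Total counts ran from 71840570 to 79473182 per library, and every value of the table was an even number. The 41 genes had between 58 counts (E2f2) and 23478 counts (Mcm6) in a library. The groups also differed in genes of other tissues. Summed counts of 8 liver markers were 84036 and 73160 in the DMSO libraries, 890 and 436 under TGF-β, and 66 and 68 under TGF-β+2APB. Summed counts of 6 salivary gland markers were 30 and 52 under DMSO, 6 and 1544 under TGF-β, and 3664 and 5384 under TGF-β+2APB. Summed counts of 6 immune markers ran from 338 to 4370 in 5 libraries and reached 31492 in TGF-β+2APB replicate 2. The endothelial sum, without Cldn5, which was absent from the count table, stayed between 10 and 50 counts. Of 6 fibroblast markers, Lum was absent from the count table. Summed counts of the other fibroblast markers, most of them from Col1a1 in the treated groups, were 144 and 160 under DMSO, 1768 and 1760 under TGF-β, and 2478 and 1954 under TGF-β+2APB. Of 6 epithelial markers, Cldn4 had 2 and 6 counts under DMSO, 732 and 716 under TGF-β, and 2108 and 1550 under TGF-β+2APB. Cdh1, Krt8 and Krt18 were abundant in all 6 libraries, Epcam had 52 to 158 counts and Esrp1 at most 4. Under TGF-β, Krt8 and Krt18 were called higher than under DMSO (log2 0.66 and 0.92), and Cdh1 and Epcam lower (log2 −0.78 and −1.42). Cd3e of the immune list and Kdr of the endothelial list had at most 2 counts. The part of these differences in the results below was not tested.

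TGF-β raised the replication genes broadly, and adding 2APB lowered a subset of them. With TGF-β, 33 of the 41 genes were higher than with DMSO at a false discovery rate (FDR) of 0.05 in edgeR's quasi-likelihood test, and none was lower. Of all genes tested, 41.5% were called in this comparison, 21.8% higher and 19.7% lower. All 41 log2 fold changes were positive, from 0.14 (Slbp) to 1.47 (Ccne1), with a median of 0.71, against a median of −0.01 over all genes tested. For 38 of the 41, both TGF-β libraries lay above both DMSO libraries, the exceptions being Pola1, Ccne2 and E2f2, and 36% of all genes tested did so. Without DMSO replicate 1 or 2, the median of the 41 was 0.66 or 0.79, against 0.003 or −0.008 over all genes tested. Fewer of the 41 were then called, as were fewer of all genes.

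With TGF-β+2APB, 16 of the 41 genes were lower than with TGF-β alone (edgeR FDR of 0.05) and none was higher, while 17.5% of all genes tested were called, 6.58% higher and 10.9% lower. The 16 were Orc6, Cdc6, Mcm5, Mcm10, Gins2, Prim1, Pold1, Pole, Rfc5, Rrm2, Tk1, E2f1, E2f7, E2f8, Uhrf1 and Chaf1a. The median log2 fold change of the 41 was −0.35, against −0.004 over all genes, and 37 of 41 were negative. For 30 of 41, both TGF-β+2APB libraries lay below both TGF-β libraries, as they did for 31% of all genes. This count was the least stable of the comparisons, and the count over all genes fell with it. It was 9 with the replicate number as a block and 8 with the 4 compared libraries alone. Over all genes tested, 2335 were called in the main fit, 1343 with the block and 860 of 13151 with the 4 libraries. The median of the 41 was −0.37 without TGF-β+2APB replicate 1 and −0.39 without replicate 2, the library with the high immune markers. It was −0.35 without either DMSO library. Mcm10, Tk1, E2f7 and Uhrf1 were called in all 16 alternatives that kept the threshold at an FDR of 0.05 without a minimum fold change.

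Against DMSO, 22 of the 41 genes were called in the TGF-β+2APB libraries, 19 higher and 3 (Gins2, Prim1 and Tk1) lower, and 52.7% of all genes tested were called, 25.6% higher and 27.2% lower. The 19 were thus a larger share of the 41 than higher calls were of all genes, and the 3 a smaller one. The median log2 fold change was 0.30, against −0.003 over all genes. Both TGF-β+2APB libraries lay above both DMSO libraries for 25 of 41 genes, and for 42.3% of all genes. The 3 comparisons share libraries, so their values are given side by side and not as separate evidence. The share of all counts held by the 41 genes was 0.154% and 0.170% under DMSO, 0.271% and 0.248% under TGF-β, and 0.218% and 0.217% under TGF-β+2APB, so the groups did not overlap and TGF-β+2APB lay between the others.

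**Figure D1:**
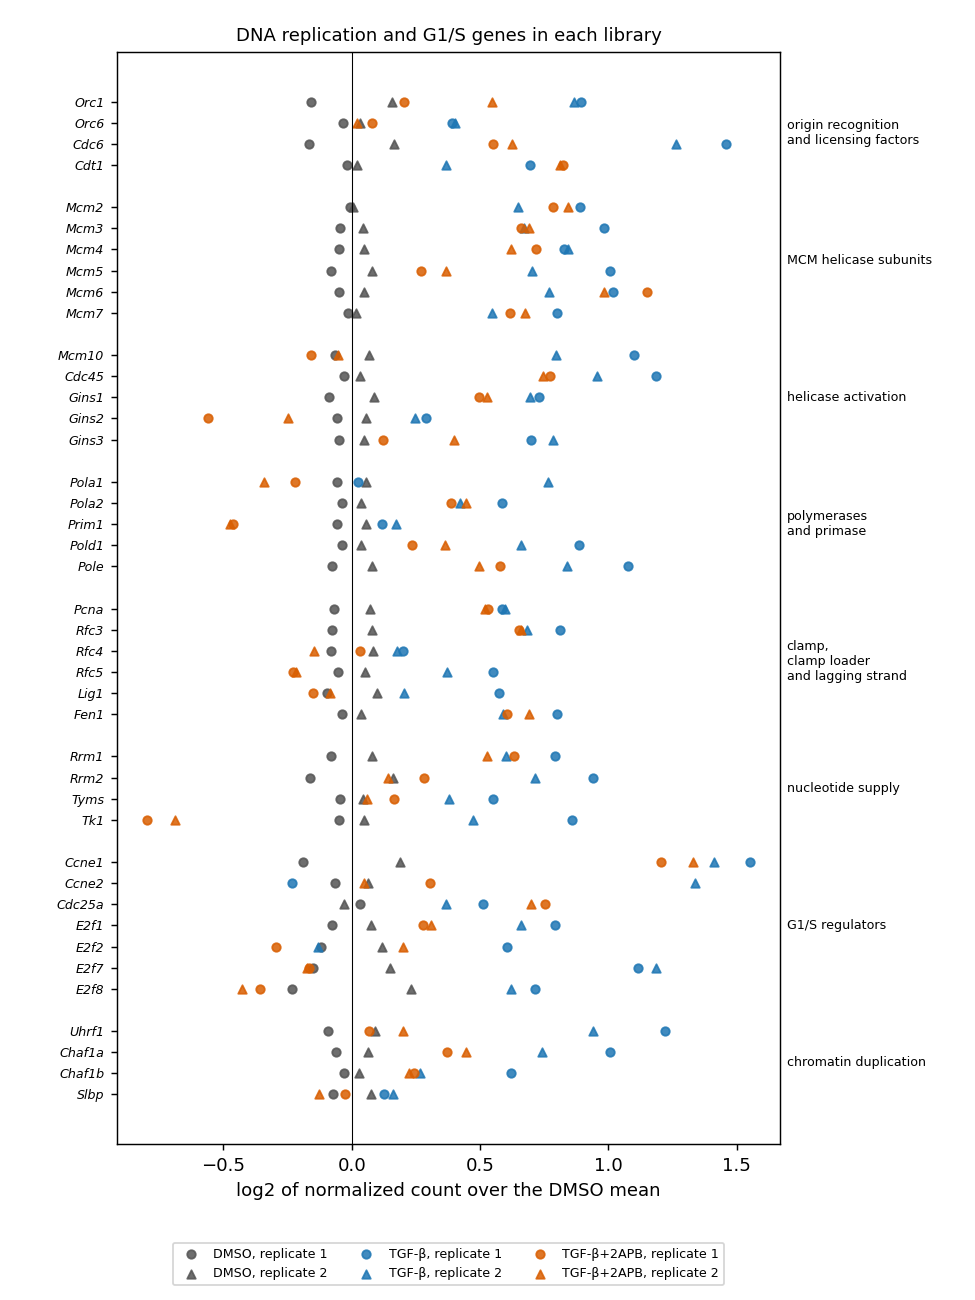
Normalized counts of the 41 genes in each library, as log2 of the value over the mean log2 level of the DMSO libraries, with genes ordered by role. Circles and triangles are replicates 1 and 2; most blue TGF-β points lie right of the grey DMSO points, orange TGF-β+2APB points of the MCM subunits other than Mcm5 lie near the blue ones, and those of Tk1, Prim1 and Gins2 lie left of the DMSO points.

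**Figure D2:**
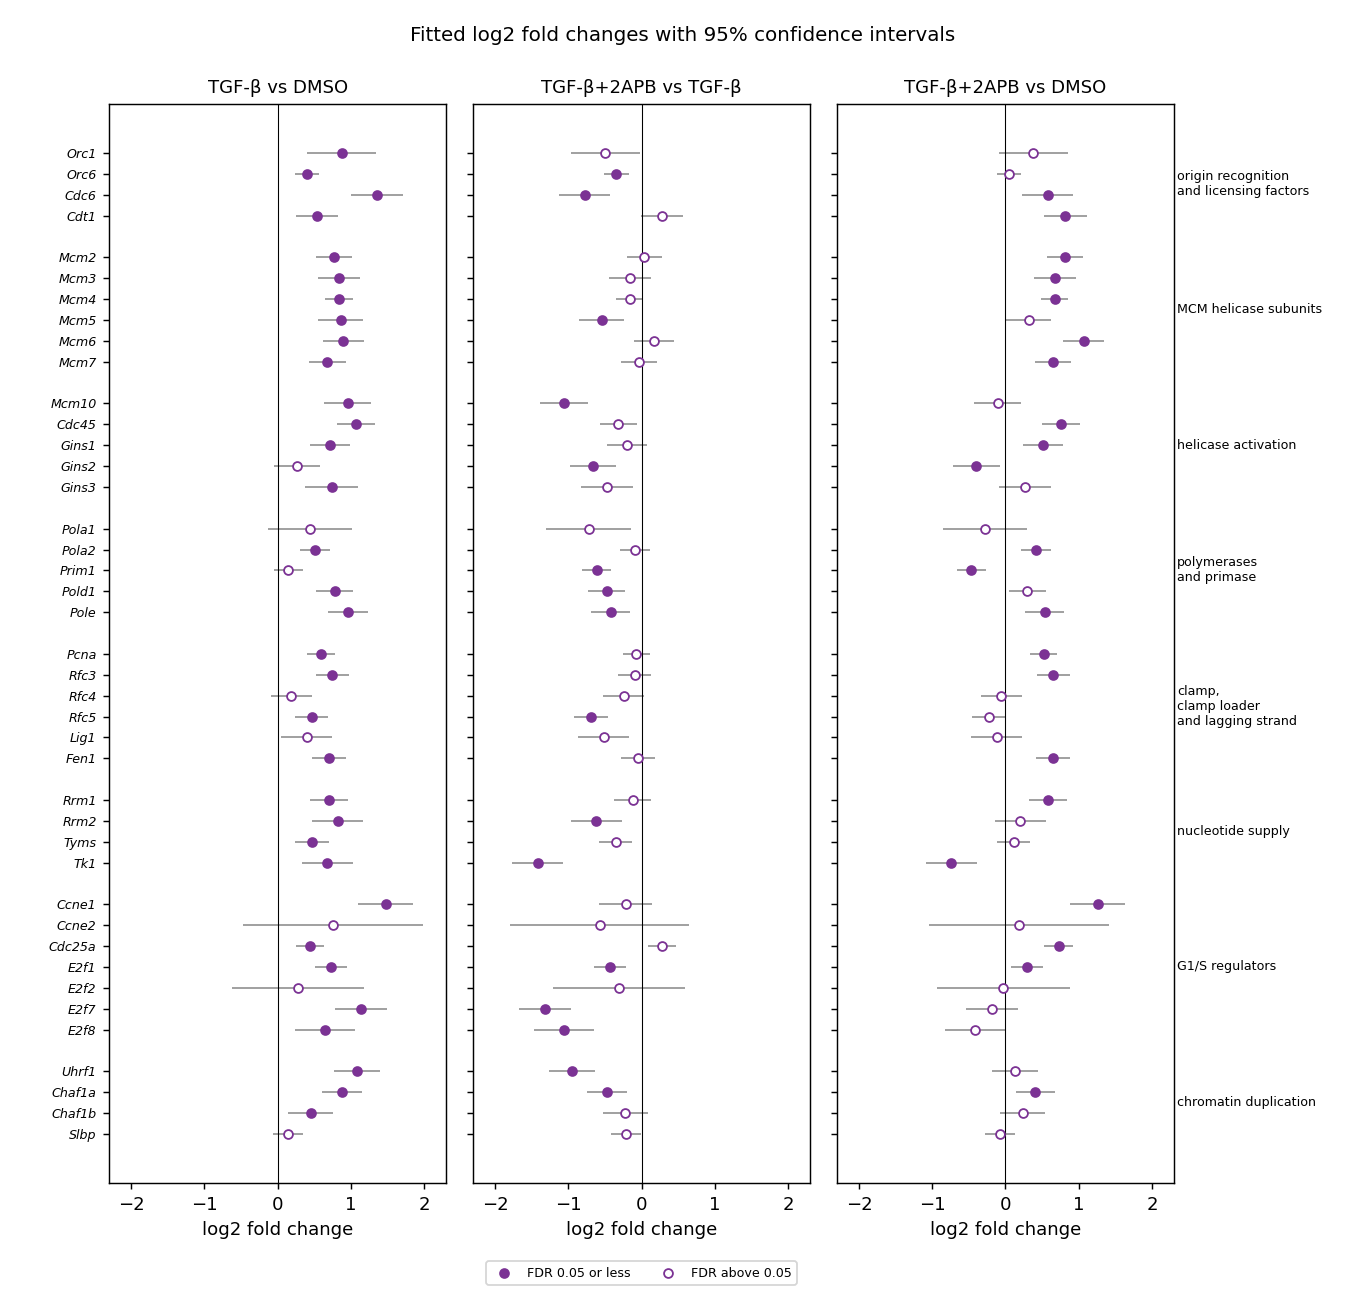
Fitted log2 fold changes of the 41 genes with 95% confidence intervals in the 3 comparisons, from the edgeR fit of all 6 libraries (n = 2 per group). Filled points passed an FDR of 0.05: 33 in TGF-β vs DMSO, 16 in TGF-β+2APB vs TGF-β, all of them negative, and 22 in TGF-β+2APB vs DMSO.

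The promoters of these genes are shown because the genes moved together and because E2F motifs are the known shared element of S-phase promoters. RefSeq promoters (GRCm38.p6, from 250 bases before to 50 after the transcription start) were found for 36 of the 41 genes, all but Mcm4, Gins1, Gins2, Pole and Ccne2. They were searched on both strands for the E2F motif of 8 letters, spelled TTTCCCGC, TTTCGCGC, TTTGCCGC or TTTGGCGC. At least 1 match was present in 16 of the 36 (44.4%), in 4.52% of all genes tested that had a promoter (n = 10015) and in 2.6% of all 27025 genes in the promoter table. The 5 genes with the most matches (ties ordered by mean count) were Mcm6, Mcm7, Mcm3, Rfc3 and Uhrf1, and their promoters are given 5′ to 3′ on the gene's strand, from 200 bases before the start to 30 bases from it on, with the matches that lie whole inside this window in capitals.
Mcm6: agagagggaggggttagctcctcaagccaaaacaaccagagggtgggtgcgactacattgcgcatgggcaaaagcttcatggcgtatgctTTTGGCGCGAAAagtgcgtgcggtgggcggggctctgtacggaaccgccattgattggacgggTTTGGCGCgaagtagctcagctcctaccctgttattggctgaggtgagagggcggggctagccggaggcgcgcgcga
Mcm7: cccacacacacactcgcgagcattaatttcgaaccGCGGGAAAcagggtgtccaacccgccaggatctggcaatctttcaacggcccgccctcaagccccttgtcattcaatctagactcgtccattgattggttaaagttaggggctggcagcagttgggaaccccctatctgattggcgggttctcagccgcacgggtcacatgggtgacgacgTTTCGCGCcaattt
Mcm3: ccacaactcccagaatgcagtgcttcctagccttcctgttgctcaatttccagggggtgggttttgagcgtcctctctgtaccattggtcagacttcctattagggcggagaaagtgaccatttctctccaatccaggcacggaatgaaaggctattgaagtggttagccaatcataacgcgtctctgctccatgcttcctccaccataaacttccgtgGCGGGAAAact
Rfc3: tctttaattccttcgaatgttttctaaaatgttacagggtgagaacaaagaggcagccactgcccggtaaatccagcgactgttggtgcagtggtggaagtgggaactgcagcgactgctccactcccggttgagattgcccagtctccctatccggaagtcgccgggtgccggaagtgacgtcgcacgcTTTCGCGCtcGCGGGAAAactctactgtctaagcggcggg
Uhrf1: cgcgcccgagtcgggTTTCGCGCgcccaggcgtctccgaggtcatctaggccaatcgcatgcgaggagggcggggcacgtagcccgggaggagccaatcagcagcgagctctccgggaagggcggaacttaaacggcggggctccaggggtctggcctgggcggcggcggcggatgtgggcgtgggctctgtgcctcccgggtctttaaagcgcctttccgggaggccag

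The Mcm6 sequence (chr1:128359676-128359905, minus strand) held overlapping matches on both strands in its first capital run and another match 47 bases before the start. The Mcm7 sequence (chr5:138171854-138172083, minus strand) held a match 165 bases before the start and a second at base 16 after it. The Mcm3 sequence (chr1:20820283-20820512, minus strand) shows a match at base 19 after the start, and a second at base 38 fell outside the printed stretch. In the Rfc3 sequence (chr5:151651179-151651408, minus strand), 2 matches lay side by side at the start itself, at −10 and 0. The Uhrf1 sequence (chr17:56304113-56304342, plus strand) held its match 185 bases before the start. The other 11 genes with a match were Orc1, Cdc6, Cdt1, Mcm5, Gins3, Pola1, Pold1, Lig1, Cdc25a, E2f2 and E2f7, and 13 of all 22 matches in the 16 genes, overlapping ones counted singly, were centred within 100 bases of the start.

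Genes with the motif were found on both sides of the threshold in TGF-β+2APB vs TGF-β. Of the 16 genes with a match, Cdc6, Mcm5, Pold1, E2f7 and Uhrf1 were called lower with TGF-β+2APB than with TGF-β. The others with a match were not, among them Mcm6, Mcm7, Mcm3 and Rfc3 with 2 matches each, overlapping ones counted once. Orc6, Mcm10, Prim1, Rfc5, Rrm2, Tk1, E2f1, E2f8 and Chaf1a, also lower, had no match in this window, which says only that these letters are not in it. Whether the motif went with the fall was not tested. The CCAAT box, a common promoter element bound by NF-Y, was present in 63.9% of the 36 promoters and in 43.0% of those of all genes tested. The E2F motif was found in 29.7% of 37 other replication genes with a promoter and in 38.5% of 13 E2F, RB and S-phase kinase genes. Among 17 mitosis genes with a promoter, it was found in 5.88% and the CCAAT box in 94.1%.

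**Figure D3:**
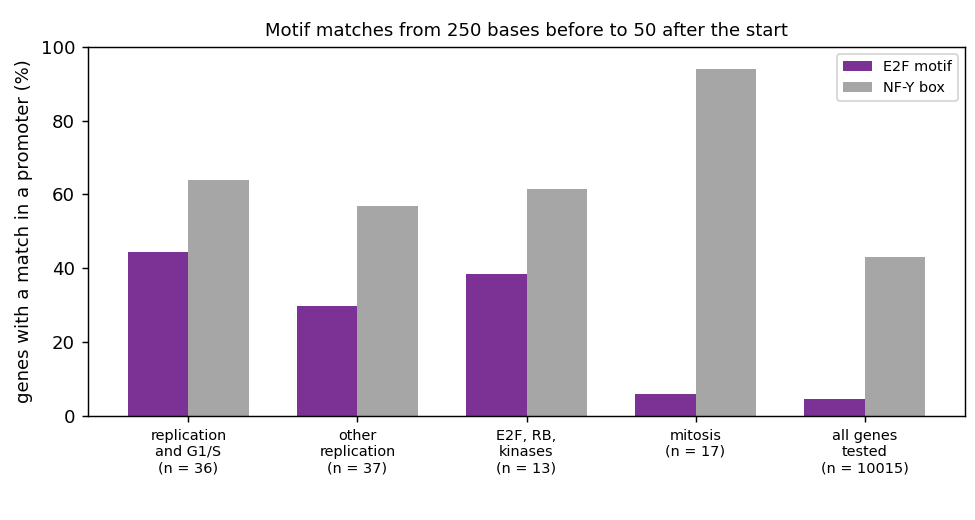
Percentage of genes with at least 1 match to the E2F motif (purple) or to the NF-Y box, CCAAT (grey), in a RefSeq promoter of 300 bases, for the replication and G1/S genes, the 3 comparison lists and all genes tested, with the number of genes under each pair of bars. The E2F bar of the replication and G1/S genes stands at 44.4%, those of the other replication genes and of the E2F, RB and kinase genes at 29.7% and 38.5%, that of all genes tested at 4.52%, and the mitosis genes have the tallest NF-Y bar, 94.1%.

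Of the origin licensing factors, all 4 rose with TGF-β, by a median log2 fold change of 0.71. Cdc6, the ATPase that helps to load MCM rings, had 612 and 769 normalized counts under DMSO, 1887 and 1647 under TGF-β, and 1004 and 1058 under TGF-β+2APB. Its TGF-β+2APB libraries lay above DMSO and below TGF-β, without overlap. The TGF-β rise of Cdc6 was 2.56-fold (log2 1.36 ± 0.14 SE, edgeR FDR 0.00112), and it was lower with TGF-β+2APB than with TGF-β (log2 −0.78 ± 0.14, FDR 0.0187). Cdt1, its partner in loading, had 2624 and 2694 normalized counts under DMSO, 4309 and 3426 under TGF-β, and 4711 and 4661 under TGF-β+2APB. Both TGF-β+2APB values were above both TGF-β values, but the difference did not pass (log2 0.28, 95% interval −0.01 to 0.56, FDR 0.161). Orc6, a subunit of the origin recognition complex, rose with TGF-β by a log2 of 0.40, was called lower with 2APB added (log2 −0.34, FDR 0.023), and then differed from DMSO by a log2 of 0.05 (FDR 0.554). Its call between the treated groups held in 9 of 16 alternatives and was lost with the replicate block (FDR 0.0623). Orc1, the largest subunit of that complex, rose by 0.87 and lay at −0.50 against TGF-β with 2APB added (FDR 0.133).

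The MCM helicase subunits rose together with TGF-β, all 6 called, with log2 fold changes between 0.68 (Mcm7) and 0.90 (Mcm6). Mcm6 had 10106 and 10828 normalized counts under DMSO, 21174 and 17839.9 under TGF-β, and 23254 and 20659 under TGF-β+2APB. The treated groups overlapped, and both lay above DMSO. Its rise was 1.86-fold with TGF-β (log2 0.90 ± 0.11, FDR 0.00214) and 2.10-fold with TGF-β+2APB (log2 1.07 ± 0.11, FDR 0.000737), and the treated groups differed by a log2 of 0.17 (95% interval −0.11 to 0.45, FDR 0.341).

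Mcm5 was the 1 subunit of 6 called between the treated groups. Its normalized counts were 3654 and 4074 under DMSO, 7763 and 6281 under TGF-β, and 4649 and 4985 under TGF-β+2APB, so that the 3 groups did not overlap. The log2 fold change of Mcm5 in it was −0.54 ± 0.12 (FDR 0.0366), and the call was lost in 6 of 16 alternatives, with an FDR of up to 0.178. Mcm2, Mcm3, Mcm4 and Mcm7 had log2 fold changes of 0.04, −0.16, −0.16 and −0.04 in it, with 95% intervals that all lay within −0.45 and 0.28, and with TGF-β+2APB they were above DMSO by 0.65 to 0.81 with FDRs of 0.00481 or less. Whether Mcm5 differed from the other subunits was not tested. The MCM subunits held 0.0560% and 0.0599% of all counts under DMSO, 0.106% and 0.0934% under TGF-β, and 0.0949% and 0.0937% under TGF-β+2APB.

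Of the helicase activators, 4 of 5 rose with TGF-β, and Mcm10 and Gins2 were called lower with TGF-β+2APB than with TGF-β. Mcm10, which helps to start the assembled helicase, had 856 and 939 normalized counts under DMSO, 1924 and 1555 under TGF-β, and 802 and 865 under TGF-β+2APB. The TGF-β+2APB libraries overlapped the DMSO libraries, and both lay far below TGF-β. Mcm10 (GRCm38 chr2:4989714-5012791, minus strand) rose 1.94-fold with TGF-β (log2 0.96 ± 0.13, FDR 0.00296), and the level with TGF-β+2APB was 0.479 times that with TGF-β (log2 −1.06 ± 0.13, FDR 0.0076). Gins1, of the GINS complex, had 431 and 486 normalized counts under DMSO, 758 and 741 under TGF-β, and 646 and 659 under TGF-β+2APB, and the treated groups differed by a log2 of −0.20, which was not called (95% interval −0.47 to 0.07, FDR 0.258). Cdc45, the third part of the working helicase, rose with TGF-β by 1.08 (FDR 0.000891) and stayed 0.76 above DMSO with TGF-β+2APB (FDR 0.00197). Gins2 did not pass with TGF-β (log2 0.27, FDR 0.145) and fell below DMSO with TGF-β+2APB (log2 −0.40, FDR 0.043), a call that was lost in 5 of 16 alternatives. Exons of Gins2 share 67.3% of their bases with Gse1 on the other strand, and whether reads were counted by strand is not given in the sources used here. Gins3 rose with TGF-β (log2 0.74, FDR 0.0103).

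Among the polymerases, the leading-strand polymerase Pole and the lagging-strand polymerase Pold1 rose with TGF-β by log2 0.96 (FDR 0.00148) and 0.78 (FDR 0.00247). Both were lower with TGF-β+2APB than with TGF-β, by −0.42 (FDR 0.0486) and −0.48 (FDR 0.0296). Pole kept this call in 5 of 16 alternatives and Pold1 in 10, and both lost it with the replicate block (FDR 0.0967 and 0.0725). Pola1, the catalytic subunit of the polymerase that lays down primers with primase, had 3111 and 3365 normalized counts under DMSO, 3292 and 5494 under TGF-β, and 2777 and 2553 under TGF-β+2APB. The TGF-β replicates differed more from each other than 1 of them did from DMSO, and no comparison of Pola1 was called (TGF-β vs DMSO log2 0.44, FDR 0.184, and TGF-β+2APB vs TGF-β log2 −0.72, FDR 0.0919). For TGF-β vs DMSO, Pola1 was called without TGF-β replicate 1 (FDR 0.00176) and with a GC content correction (FDR 0.00778), while without TGF-β replicate 2 its log2 was 0.024 (FDR 0.817). Between the treated groups Pola1 was called lower in 5 of 16 alternatives, among them DESeq2 (FDR 0.0219) and the GC content correction (FDR 0.0114), and against DMSO with TGF-β+2APB in 3 of 16. Pola2, the second subunit, had 2801 and 2946 normalized counts under DMSO, 4311 and 3845 under TGF-β, and 3754 and 3911 under TGF-β+2APB, so that the treated groups overlapped. It rose by 0.51 with TGF-β (FDR 0.00539) and by 0.42 with TGF-β+2APB (FDR 0.00806). Prim1, the catalytic primase subunit, was not called with TGF-β (log2 0.14, FDR 0.203) and lay below DMSO with TGF-β+2APB (log2 −0.47 ± 0.08, FDR 0.00446).

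In the group of the sliding clamp, its loader and the enzymes that finish the lagging strand, Pcna, Rfc3, Rfc5 and Fen1 rose with TGF-β. Per kilobase of exon, Pcna, the clamp itself, had the highest level of the 41 genes, with 4496 normalized counts per kilobase with DMSO, 6775 under TGF-β and 6454 under TGF-β+2APB. Against DMSO, Pcna had log2 fold changes of 0.59 ± 0.08 under TGF-β (FDR 0.00225) and 0.52 ± 0.08 under TGF-β+2APB (FDR 0.00233). Fen1, the flap nuclease that trims Okazaki fragments, had 2743 and 2886 normalized counts under DMSO, 4906 and 4236 under TGF-β, and 4277 and 4544 under TGF-β+2APB. The treated groups overlapped and differed by a log2 of −0.05 (95% interval −0.28 to 0.18, FDR 0.738). Exons of Fen1 share 78.8% of their bases with the antisense gene Gm10143. Rfc5, a small subunit of the clamp loader, had 1630.3 and 1751 normalized counts under DMSO, 2475 and 2184 under TGF-β, and 1442 and 1453 under TGF-β+2APB. It was the 1 gene of 6 in this group called lower with TGF-β+2APB than with TGF-β (log2 −0.69 ± 0.09, FDR 0.00932), and both of those libraries lay under DMSO too, a difference that was not called (log2 −0.22, FDR 0.0912). The loader subunit Rfc3 had a log2 of −0.09 in the same comparison (FDR 0.527), while Rfc4 was called in none of the 3. Lig1, the ligase that seals the fragments, missed the threshold with TGF-β (log2 0.40, FDR 0.0682) and in TGF-β+2APB vs TGF-β (log2 −0.52, FDR 0.0569).

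The enzymes of nucleotide supply all rose with TGF-β, with log2 fold changes from 0.47 (Tyms, thymidylate synthase) to 0.82 (Rrm2, the regulated subunit of ribonucleotide reductase). Tk1, the salvage thymidine kinase of S phase, had 1984 and 2121 normalized counts under DMSO, 3719 and 2849 under TGF-β, and 1181 and 1273 under TGF-β+2APB. The 3 groups did not overlap, and TGF-β+2APB was the lowest. Tk1 (chr11:117815526-117826092, minus strand) rose 1.60-fold with TGF-β (log2 0.68 ± 0.14, FDR 0.012), and TGF-β+2APB gave 0.374 times the TGF-β level (log2 −1.42 ± 0.14, FDR 0.00495) and 0.598 times the DMSO level (log2 −0.74 ± 0.14, FDR 0.00664). The first of these was the largest fall among the 41 genes in that comparison. Rrm1, the large subunit of ribonucleotide reductase, had 6433 and 7188 normalized counts under DMSO, 11788 and 10319 under TGF-β, and 10543 and 9798 under TGF-β+2APB. Its treated groups overlapped (log2 −0.12, 95% interval −0.38 to 0.14, FDR 0.463), and TGF-β+2APB stayed 0.58 above DMSO (FDR 0.00538). Rrm2, by contrast, was lower with TGF-β+2APB than with TGF-β (log2 −0.62 ± 0.14, FDR 0.0361), at a level not distinguished from DMSO (log2 0.20, FDR 0.27). The call of Rrm2 held in 8 of 16 alternatives, and was lost with the replicate block (FDR 0.083) and with the GC content correction (FDR 0.0546). Whether Rrm1 and Rrm2 differed in this was not tested.

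The G1/S regulators held both the largest rise and some of the largest falls. Ccne1, cyclin E1, had 476 and 618 normalized counts under DMSO, 1590.4 and 1445 under TGF-β, and 1250.0 and 1364 under TGF-β+2APB, and rose 2.78-fold with TGF-β (log2 1.47 ± 0.15, FDR 0.00103) and 2.39-fold with TGF-β+2APB (log2 1.26 ± 0.15, FDR 0.00112). Both TGF-β+2APB values lay below both TGF-β values, a difference that was not called (log2 −0.22, FDR 0.354). Ccne2, cyclin E2, had 153 and 167 normalized counts under DMSO, 136 and 405 under TGF-β, and 198 and 166 under TGF-β+2APB. Its TGF-β replicates lay on both sides of the DMSO values, and no comparison was called (TGF-β vs DMSO log2 0.75, 95% interval −0.47 to 1.98, FDR 0.274). In 2 of 16 alternatives Ccne2 was called higher under TGF-β than under DMSO, without TGF-β replicate 1 (FDR 0.00714) and with a GC content correction (FDR 0.0285), and without TGF-β replicate 1 it was also called lower with 2APB added (FDR 0.0236). Ccne2 had the lowest GC content of exons among the 41 genes, 36.3%, and the difference between the TGF-β replicates followed GC content over all genes, with a Spearman rho of −0.551 between GC and the log2 of replicate 2 over replicate 1 (n = 12720 genes, which share the libraries).

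Cdc25a, the phosphatase that activates cyclin E kinase, had 2649 and 2536 normalized counts under DMSO, 3695 and 3349 under TGF-β, and 4368 and 4209 under TGF-β+2APB. The 3 groups did not overlap and lay in that order. It was called higher with TGF-β (log2 0.44 ± 0.08, FDR 0.00684) and with TGF-β+2APB against DMSO (log2 0.73 ± 0.08, FDR 0.000765), and missed the threshold between the treated groups (log2 0.28, 95% interval 0.09 to 0.48, FDR 0.0585). In 5 of 16 alternatives it was called higher with TGF-β+2APB than with TGF-β, among them DESeq2 (FDR 0.0146). Cdc25a and Cdt1 had the 2 largest positive log2 fold changes of the 41 genes in that comparison.

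All 3 E2F genes called between the treated groups were lower with 2APB added. E2f7, a repressor, had 319 and 393 normalized counts under DMSO, 766 and 806 under TGF-β, and 315 and 314 under TGF-β+2APB. The TGF-β+2APB values lay just below the lower DMSO value, and the TGF-β values were far above both groups. E2f7 (chr10:110745439-110787384, plus strand) rose 2.21-fold with TGF-β (log2 1.14 ± 0.14, FDR 0.00211), and TGF-β+2APB gave 0.400 times the TGF-β level (log2 −1.32 ± 0.14, FDR 0.00578). E2f8, its close relative, rose by 0.65 (FDR 0.0246) and was at −1.06 against TGF-β with 2APB added (FDR 0.0136). The activator E2f1 rose by 0.73 (FDR 0.00199), was lower by −0.44 with TGF-β+2APB than with TGF-β (FDR 0.027) and stayed 0.29 above DMSO (FDR 0.037). The call of E2f1 between the treated groups held in 10 of 16 alternatives and was lost with the replicate block (FDR 0.0675). Its call above DMSO with TGF-β+2APB held in 8 of 16, and was lost with the replicate block (FDR 0.0712) and with the GC content correction (FDR 0.138). E2f2, the other activator, had the lowest level of the 41 genes, 57.4 to 107 normalized counts, its groups overlapped, and no difference was detectable at this depth (TGF-β vs DMSO log2 0.28, 95% interval −0.62 to 1.18, FDR 0.576).

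Of the chromatin duplication factors, Uhrf1, which brings the maintenance DNA methyltransferase to newly copied DNA, changed most. Uhrf1 had 3802 and 4323 normalized counts under DMSO, 9455 and 7780.1 under TGF-β, and 4251 and 4657 under TGF-β+2APB. The TGF-β+2APB libraries overlapped DMSO, and TGF-β lay above both. Uhrf1 (chr17:56303321-56323486, plus strand) rose 2.12-fold with TGF-β (log2 1.09 ± 0.13, FDR 0.00164), and TGF-β+2APB gave 0.517 times the TGF-β level (log2 −0.95 ± 0.13, FDR 0.00889). Chaf1a and Chaf1b, subunits of the chromatin assembly factor CAF-1, rose with TGF-β by 0.88 (FDR 0.00204) and 0.45 (FDR 0.032). Chaf1a alone of the pair was called between the treated groups (log2 −0.47, FDR 0.0373, against −0.22 and FDR 0.274 for Chaf1b), although 52.5% of its exon bases are shared with Ubxn6 on the other strand. The call of Chaf1a held in 9 of 16 alternatives and was lost with the replicate block (FDR 0.0846). Slbp, which binds the stem-loop of histone mRNAs, had 2789 and 3090.4 normalized counts under DMSO, 3200.3 and 3281 under TGF-β, and 2886 and 2687 under TGF-β+2APB. Both TGF-β values were above both DMSO values, yet Slbp was called in no comparison (log2 0.14 with FDR 0.225, −0.22 with FDR 0.13, and −0.08 with FDR 0.469 against DMSO).

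Genes of the same pathway outside the 41 were counted in the same way. Of all genes tested, 21.8% were called higher and 19.7% lower with TGF-β than with DMSO. For TGF-β+2APB, these shares were 25.6% and 27.2% against DMSO, and 6.58% and 10.9% against TGF-β. Of 47 other replication genes, all tested, 26 were higher and 1 (Pold4) lower with TGF-β than with DMSO, with a median log2 fold change of 0.50, and the largest rises were those of Cdc7, the kinase that fires origins (1.09 ± 0.19, FDR 0.00658), and Timeless, of the fork protection complex (1.01 ± 0.08, FDR 0.000438). Between the treated groups, 14 of the 47 were lower with 2APB added and 1 (Pole4) higher, with a median of −0.24, and the histone chaperone Asf1b (−1.37 ± 0.13, FDR 0.00463) and the clamp-loading factor Dscc1 (−1.29 ± 0.26, FDR 0.0255) fell most. Against DMSO, 15 were higher and 4 lower with TGF-β+2APB. These counts depended on single libraries, as the counts over all genes tested did. The list's median in TGF-β vs DMSO was 0.43 without DMSO replicate 1 and 0.55 without DMSO replicate 2. Between the treated groups, leaving out each library in turn gave medians from −0.307 (without TGF-β replicate 1) to −0.208 (without TGF-β replicate 2). For TGF-β+2APB vs DMSO they ran from 0.11 (without DMSO replicate 1) to 0.215 (without TGF-β+2APB replicate 2). The 15 calls between the treated groups were 9 with the replicate block, which called 1343 of all genes rather than 2335.

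Of 20 E2F, RB and S-phase kinase genes, 8 were higher with TGF-β, led by the RB relative Rbl1 (log2 0.71 ± 0.13, FDR 0.00882) and the kinase Cdk2 (0.54 ± 0.09, FDR 0.00493), and the RB relative Rbl2 was lower (−0.31 ± 0.07, FDR 0.0132). Between the treated groups, 4 were lower with 2APB added, namely Cdc25b, Cdc25c, Ccna2 and the E2F partner Tfdp1. The first 3, phosphatase and cyclin genes on this list, had log2 fold changes of −1.80, −1.67 and −1.64. The median of the mitosis genes in this comparison was −1.42. The kinases Cdk2 (log2 −0.30, edgeR FDR 0.0688) and Wee1 (log2 −0.15, FDR 0.253) were not called in it. Against DMSO, 6 of the E2F, RB and S-phase kinase genes were higher and 5 lower with TGF-β+2APB, near the shares of all genes tested, 25.6% and 27.2%. In TGF-β vs DMSO, 41.5% of all genes were called, near the 9 of 20 here, and 21.8% were called higher. The 9 calls of TGF-β vs DMSO were 9 with DESeq2, and 5 with the replicate block or with the 4 compared libraries alone. Over all genes tested, these 3 settings gave 6094, 4739 and 4757 calls, against 5548 in the main fit. The list's median was 0.15 or 0.25 without DMSO replicate 1 or 2, rather than 0.21, and fewer of the 20 were then called, as of all genes. Leaving out each library in turn gave medians of −0.133 to −0.053 between the treated groups and 0.058 to 0.202 for TGF-β+2APB vs DMSO.

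For comparison, genes of the later phase of the cycle were counted too. Of 20 mitosis genes, 4 were higher and 1 lower with TGF-β, with a median log2 fold change of 0.08. DESeq2 called 5 of them and the replicate block 3, where all genes tested had 6094 and 4739 calls, against 5548 in the main fit. The median was 0.008 or 0.157 without DMSO replicate 1 or 2, and 0.116 or 0.102 without TGF-β replicate 1 or 2. Calls were fewer without a DMSO library, as over all genes, and without TGF-β replicate 2 more of them were lower than higher. With TGF-β+2APB, 18 of 20 were lower than with TGF-β (median −1.42) and all 20 were lower than with DMSO (median −1.44), with Ccnb2, cyclin B2, at −2.33 ± 0.13 against DMSO (FDR 8.06e-05). The TGF-β+2APB libraries in which all 20 mitosis genes lay below DMSO were also those in which 19 of the 41 replication and G1/S genes were above it. Of 50 replication-dependent histone entries, 8 passed the filter (the RNA was selected by its poly(A) tail, which most of their mRNAs lack), and none of these was called higher in any comparison. Under TGF-β, 5 of the 8 were lower than under DMSO (median log2 fold change −1.60), under TGF-β+2APB 5 were lower than under DMSO (median −2.43), and between the treated groups 2 were lower with 2APB added (median −0.69). Without DMSO replicate 1, 6 of the entries were tested, with a median of −1.42 in TGF-β vs DMSO. Without DMSO replicate 2, 4 were tested, with a median of −0.82.

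**Figure D4:**
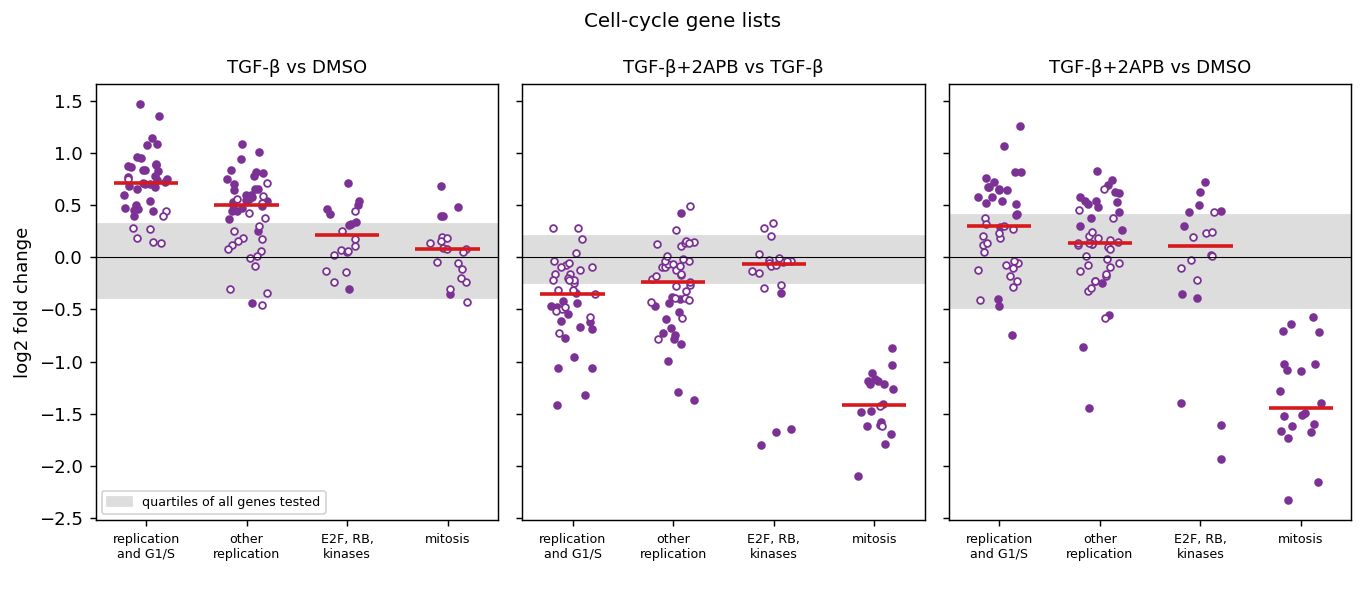
Log2 fold changes of the replication and G1/S genes and of 3 other cell-cycle lists in the 3 comparisons, where each point is a gene (filled, edgeR FDR of 0.05 or less), the red bar is the list's median and the grey band runs from the lower to the upper quartile of all genes tested. The replication and G1/S median stands at 0.71, −0.35 and 0.30 from left to right, and the mitosis median at 0.08, −1.42 and −1.44.

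Replicates also differed among themselves. Over the 41 genes, the median log2 difference of replicate 2 from replicate 1 was 0.12 with DMSO, −0.18 with TGF-β and 0.01 with TGF-β+2APB, and the largest single difference, 1.56, was that of Ccne2 between the TGF-β replicates. Median GC content of exons was 49.3% for the 41 genes and 49.7% for the genes tested that had a value. With a GC content correction, 37 of the 41 were called in TGF-β vs DMSO, 22 in TGF-β+2APB vs DMSO and 15 between the treated groups. Over all genes tested, the correction gave 6032, 7545 and 2780 calls, against 5548, 7044 and 2335 in the main fit. Exons of 16 of the 41 genes share at least 1 base with another annotated gene, on the other strand except for the microRNA genes within Mcm7.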

How the data were processed

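RNA selected with oligo-dT from the 6 libraries was sequenced by the authors as 50 bp single-end reads. The labels name FastQC 0.11.2, TopHat2 2.0.13, DESeq2 1.6.1 and the mouse build mm10, while the methods name a human build and featureCounts, and the gene symbols of the file are mouse symbols. Whether counting used strand is not given in the sources used here. The deposited table holds whole-number counts per gene, made by the authors from the aligned reads and not normalized before deposit, all even. Library totals exceed the average number of reads per sample that the paper states, so a single count need not stand for a single read. The minimum of 20 normalized counts then need not mean 20 reads, and the reason was not tested. With all counts halved, 12483 genes passed the filter. Of the 41 genes, 33 were then called in TGF-β vs DMSO, 23 in TGF-β+2APB vs DMSO and 17 between the treated groups.

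Normalized counts were made with TMM factors and scaled to the mean library size. Testing kept the genes whose mean was 20 normalized counts or more and used edgeR 4.0.16 (quasi-likelihood test, 3 groups in 1 fit, R 4.3.3), with Benjamini-Hochberg adjustment over all 13355 genes and a threshold of 0.05, and no p-value was adjusted over the 41 genes alone. Standard errors are the log2 fold change over the root of F, and intervals are 95%. Replicates of a group differed by more than sampling noise. DESeq2 1.42.0 and the other alternatives are described in the closing section. Replicate numbers were not taken as pairs.

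The members and lists were chosen with earlier results of these data known. Values in every library are given for the members with the highest and lowest log2 fold change of TGF-β+2APB vs TGF-β in each role, by rule. Of other lists, called genes of large size are named, and of histone entries only counts. Coordinates and exon lengths are from the GENCODE annotation of GRCm38, the build named mm10 in the labels, and promoters are from RefSeq. Positions count from 0 at the first transcribed base to the first base of a match on the plus orientation of the gene, and a gene with several promoters counted if any of them held the motif. In ranking genes, overlapping matches count once.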

Additional observations from a re-analysis of the deposited data

How the results depend on the processing

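In the 16 alternatives that give a median, the median log2 fold change of the 41 genes kept its sign in each comparison. Leaving out each library in turn gave 21 to 34 calls and medians of 0.66 to 0.79 in TGF-β vs DMSO, 15 to 27 calls and medians of 0.23 to 0.38 in TGF-β+2APB vs DMSO, and 4 to 23 calls and medians of −0.43 to −0.30 in TGF-β+2APB vs TGF-β. A lone sample left in a group is assumed to vary like the other groups. A minimum log2 fold change of 1 left 5, 2 and 4 calls in this order, and 2117, 3029 and 841 over all genes tested. In TGF-β+2APB vs TGF-β, an FDR of 0.01 gave 6 calls, the 4 compared libraries alone 8, and the replicate block 9, all 9 of them among the 16. Over all genes tested, these settings gave 601, 860 and 1343 calls, against 2335 in the main fit. The replicate block kept 32 of 33 and 20 of 22 calls in the comparisons with DMSO. Over all genes tested it called 4739 and 6357 there, against 5548 and 7044 in the main fit. Deviations of same-numbered samples correlated with r of 0.147 (DMSO with TGF-β), −0.458 (DMSO with TGF-β+2APB) and −0.255 (TGF-β with TGF-β+2APB). These values cannot show whether the numbers pair the samples, since each group has 1 replicate difference. That difference also followed GC content, with Spearman rho of −0.144 (DMSO), −0.551 (TGF-β) and 0.254 (TGF-β+2APB). A block with the TGF-β+2APB numbers exchanged, chosen after seeing the data, gave 33, 22 and 16 calls. DESeq2 gave 34, 24 and 20, and Cdc25a, higher with TGF-β+2APB than with TGF-β, was among the 20. Over all genes tested, the exchanged block gave 5706, 7232 and 2465 calls. DESeq2 gave 6094, 7444 and 3380 there, against 5548, 7044 and 2335 in the main fit. The GC content correction, also chosen after seeing the data, moved the median of TGF-β+2APB vs DMSO from 0.30 to 0.42. Of the calls, 21 of 33, 13 of 22 and 4 of 16 held in all 16 alternatives with an unchanged threshold. The cause of these shifts was not tested, except that a stricter threshold leaves fewer calls by construction.

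Signs that turned all belonged to uncalled differences. Leaving out a library gave −0.23 to 1.34 for Ccne2 and −0.13 to 0.60 for E2f2 in TGF-β vs DMSO; −0.16 to 0.05 for Rfc4 and −0.28 to 0.19 for E2f2 in TGF-β+2APB vs DMSO; and, in TGF-β+2APB vs TGF-β, −0.077 to 0.17 for Mcm2, −0.31 to 0.005 for Mcm3, −0.16 to 0.10 for Mcm7, −0.15 to 0.06 for Fen1, −1.15 to 0.42 for Ccne2 and −0.63 to 0.10 for E2f2. Against DMSO with TGF-β+2APB, Orc6 was −0.013 under library size scaling, and Rfc4 was 0.14 and Slbp 0.11 with the GC content correction, under which Pcna was 0.012 in TGF-β+2APB vs TGF-β. The 7-letter core (without the first T of the motif) was found in 66.7% of the 36 promoters and in 19.0% of those of all genes tested.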
